A study of Mus musculus with 4 samples.

Results

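The regions described here are the 4313 peaks of histone H3 acetylated at lysine 9 (H3K9ac) that lay inside a protein-coding gene but away from both of its ends in mouse myeloid cells kept without a deacetylase inhibitor. They are 26.3% of the 16419 peaks called in that condition (95% Clopper-Pearson interval 25.6 to 26.9). Each was a peak of 5000 bp or shorter that overlapped a RefSeq protein-coding gene on mm10 and touched no window of 1 kb on either side of either annotated end of any such gene. They are called interior peaks here, and the gene that holds one is its host. The members were thus chosen by the position and length of peaks in the CM list, so their number, their host genes, their place along the gene and all other values of the CM list describe that choice and are given with no test. The list of the romidepsin library played no part in the choice.

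The cells were mouse bone marrow-derived MDSC (myeloid-derived suppressor cells, immature myeloid cells that restrain T cells), and the series title describes them as senescent after induction in culture. All were in a condition named CM, which the labels do not spell out, and the treated cells also received romidepsin, an inhibitor of histone deacetylases whose dose and duration are not in the labels. The 4 samples of the series are 2 immunoprecipitated libraries, 1 per condition, and their 2 inputs, and strain, age and genotype are not stated. Each condition had 1 immunoprecipitated library, no difference has a replicate check, read depth is unknown and intervals cover counting error only. The CM list also held 9633 peaks of 5000 bp or shorter at gene ends and 2245 outside genes, and the romidepsin list held 103336 peaks. Of the marker lists for the labelled cell type, 16 of 20 monocyte and macrophage genes had a CM peak at a gene end, among them Csf1r, Cd14, Lyz2 and Itgam, and Mrc1, Marco, C1qa and Cd300lf did not. Over all protein-coding genes the share with such a peak was 48.8%. Such a peak was present at 10 of 20 neutrophil genes and 7 of 15 dendritic cell genes, both near that share. The neutrophil genes with one were Elane, Prtn3, S100a8, Csf3r, Cxcr2, Mmp8, Lcn2, Chil3, Gfi1 and Cebpe. The neutrophil genes without one were Mpo, Ctsg, Ngp, Camp, Ltf, S100a9, Mmp9, Fcnb, Cd177 and Retnlg. It was present at 4 of 20 lymphocyte genes (Cd4, Cd79a, Cd79b and Il7r) and 6 of 14 erythroid and megakaryocyte genes. It was also present at 1 of 15 stromal and endothelial genes (Kdr) and 0 of 10 mast cell and basophil genes. The part of other cells in the results was not tested.

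H3K9ac is placed on nucleosomes by acetyltransferases such as Kat2a and Kat2b, is removed by histone deacetylases, and is best known from the starts of active genes. Inside a gene it can mark an alternative start, from which a shorter transcript is read, or an enhancer lying in an intron. Myeloid transcription factors such as PU.1 (gene Spi1) and Runx1 are known to act through enhancers inside and between genes. The files hold no exon coordinates, so whether an interior peak lies in an exon or an intron was not analysed here.

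The interior peaks with the highest enrichment lay mostly over an internal start of the host gene. Over interior peaks of high and lower fold together, the sequences in front of internal starts differed widely in CpG content. The 7 stretches below each end at the base before a start that lay inside an interior peak, and they are shown as examples from 1 to 21 CpG. Other listed starts in the same peaks, with up to 42 CpG in Ecpas, lie downstream of a start shown here and are not printed. A further Bcl2l1 start with 0 CpG, also downstream, lies in a separate interior peak and is not printed either. They come from RefSeq for GRCm38, are written 5′ to 3′ on the strand of the gene, and carry in capitals every GC box (GGGCGG or its complement CCGCCC, the letters bound by Sp1) and every ETS core (GGAAGT or its complement ACTTCC, the letters bound by ETS factors such as PU.1).
Ecpas, proteasome adaptor, chr4:58912750-58912949, minus strand, 17 CpG: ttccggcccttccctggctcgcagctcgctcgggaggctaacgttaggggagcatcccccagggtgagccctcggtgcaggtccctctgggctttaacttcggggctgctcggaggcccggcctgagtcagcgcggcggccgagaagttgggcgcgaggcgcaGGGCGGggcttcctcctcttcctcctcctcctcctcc
Gabpb1, subunit of the ETS factor GABP, chr2:126675593-126675792, minus strand, 21 CpG: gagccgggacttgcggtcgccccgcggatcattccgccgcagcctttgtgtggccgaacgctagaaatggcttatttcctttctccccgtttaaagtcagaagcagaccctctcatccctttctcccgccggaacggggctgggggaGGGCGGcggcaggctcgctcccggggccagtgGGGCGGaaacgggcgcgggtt
Tlk2, chromatin assembly kinase, chr11:105181327-105181526, plus strand, 16 CpG: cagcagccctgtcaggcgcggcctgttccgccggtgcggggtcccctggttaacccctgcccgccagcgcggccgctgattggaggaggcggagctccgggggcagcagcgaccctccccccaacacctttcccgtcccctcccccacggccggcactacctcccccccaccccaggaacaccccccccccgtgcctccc
Nfkb2, NF-kappaB subunit p100/p52, chr19:46304537-46304736, plus strand, 14 CpG: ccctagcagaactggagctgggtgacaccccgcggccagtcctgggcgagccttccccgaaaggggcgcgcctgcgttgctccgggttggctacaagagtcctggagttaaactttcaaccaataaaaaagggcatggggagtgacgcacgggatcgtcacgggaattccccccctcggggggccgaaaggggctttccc
Frmd4a, scaffold protein, chr2:4559554-4559753, plus strand, 11 CpG: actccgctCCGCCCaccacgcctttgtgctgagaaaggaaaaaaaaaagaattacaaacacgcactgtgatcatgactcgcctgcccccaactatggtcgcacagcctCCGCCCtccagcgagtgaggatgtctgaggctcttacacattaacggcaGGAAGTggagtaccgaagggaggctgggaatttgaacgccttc
Bcl2l1, survival protein Bcl-xL, chr2:152830718-152830917, minus strand, 8 CpG: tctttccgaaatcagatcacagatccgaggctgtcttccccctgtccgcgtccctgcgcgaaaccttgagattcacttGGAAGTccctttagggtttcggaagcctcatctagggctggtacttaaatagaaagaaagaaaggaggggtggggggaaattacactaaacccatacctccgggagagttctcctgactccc
Pde4b, cAMP phosphodiesterase, chr4:102569860-102570059, plus strand, 1 CpG: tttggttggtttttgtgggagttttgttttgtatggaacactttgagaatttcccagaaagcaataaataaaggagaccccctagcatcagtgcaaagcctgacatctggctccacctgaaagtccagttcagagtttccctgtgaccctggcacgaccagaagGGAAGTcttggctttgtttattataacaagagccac
The CpG numbers are counts in the 200 bases printed. Ecpas held 1 GC box and Gabpb1 held 2, Frmd4a held 2 GC boxes and 1 ETS core, Bcl2l1 and Pde4b held 1 ETS core each, and the Tlk2 and Nfkb2 stretches held neither. In front of the starts of the same peaks that are not printed, Ecpas had 4 GC boxes, Nfkb2 had 2 and 1, and Gabpb1 had none. The interior peaks over these starts had folds of 8.06 at Ecpas, 8.20 at Gabpb1, 8.24 at Tlk2, 7.07 at Nfkb2, 6.0 at Frmd4a, 5.65 at Bcl2l1 and 5.41 at Pde4b. Starts of Ankrd13c and Cyth1 were read too and are not printed. The Ankrd13c start had 9 CpG, no GC box and no ETS core, in an interior peak of fold 8.01. The Cyth1 starts had 2 and 1 CpG, in interior peaks of fold 4.43 and 4.64. The 7 stretches are picked examples, so no relation of fold to CpG number can be read from them. Fold is the enrichment over background that the authors' peak caller gave, averaged over the whole peak, and is used only within the CM list.

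The longest interior peaks were 4963 bp in Stab1 (a scavenger receptor, fold 4.83), 4948 bp in Arid1a (a SWI/SNF remodeller subunit, fold 6.73), 4922 bp in Frmd4a (fold 6.0), 4922 bp in Tnrc18 (fold 8.15) and 4860 bp in Pde4b (fold 5.41). The shortest peak left out for its length was 5016 bp in Srgn (the granule proteoglycan serglycin, fold 5.05), and 27 peaks in all were left out for length. Nearest to the 1 kb limit, interior peaks lay in Eif4g3 (a translation initiation factor, fold 6.11) and L3mbtl1 (a chromatin reader, fold 3.83), and peaks left out at Fam171a2 (fold 4.03) and Zmym4 (fold 6.58) reached into the window by 2 and 4 bases. The 4313 interior peaks covered 4.22 Mb.

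Interior peaks fell into a smaller group over internal starts, which resembled gene end peaks in height and width, and a larger group of low, short peaks. The RefSeq promoter table listed starts for all hosts of 3519 interior peaks, and 829 of these (23.6%, 22.2 to 25) held a listed start. Of the 3519, 782 (22.2%) held a start of their own host, 47 (1.34%) held only a start of a gene that is not protein-coding, and 0 held a start of another protein-coding gene, which allows a share of up to 0.105%. The median fold was 5.51 over a start (interquartile range 4.70 to 6.20) and 3.83 at no listed start (3.59 to 4.22). At gene ends it was 5.67 and outside genes 4.06. The median length was 1479 bp over a start and 582.5 bp at no listed start, beside 1453 bp at gene ends and 622 bp outside genes. A fold of 5 or more was found for 66.5% of interior peaks over a start (63.1 to 69.7) and for 7.77% of those at no listed start (6.79 to 8.85), beside 71.0% at gene ends and 15.7% outside genes. Over all interior peaks the median fold was 3.99 and the median length 694 bp. The shortest length in the CM list was 271 bp, and 91 interior peaks had it.

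**Figure D1:**
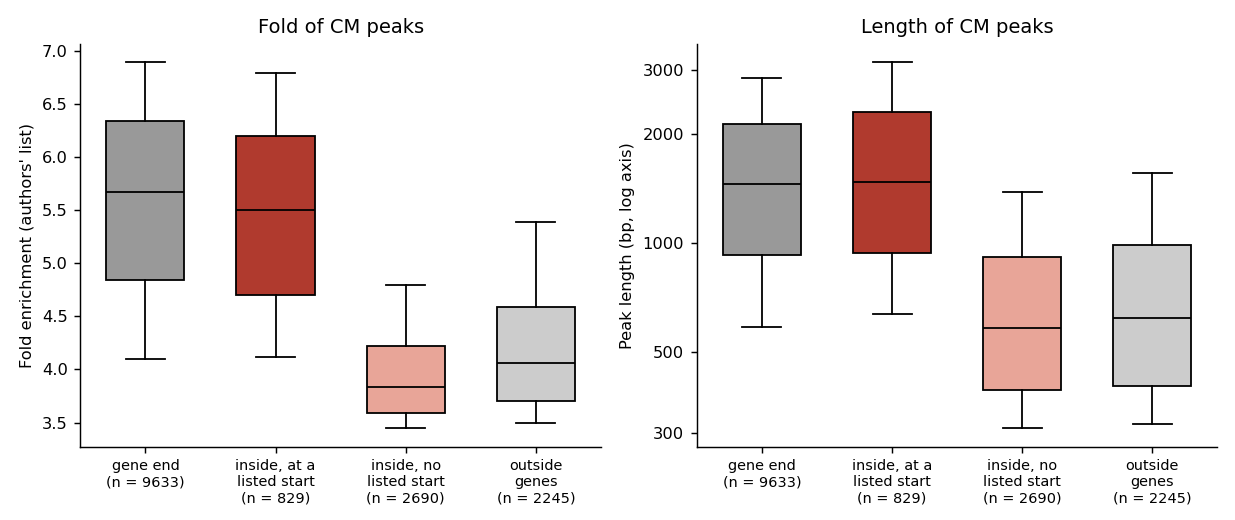
Fold enrichment (left) and length on a log axis (right) of CM peaks of 5000 bp or shorter at gene ends, inside genes at a listed start, inside genes at no listed start and outside genes. Boxes span the quartiles with the median as a line and whiskers reach the 10th and 90th percentiles. Interior peaks over a start (median fold 5.51) sit beside gene end peaks (5.67), and those at no start (3.83) lie lowest.

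Of the 10 interior peaks with the highest fold, 7 held a listed start of their host. These were Tlk2 at 8.24, Gabpb1 at 8.20, Ecpas at 8.06, Ankrd13c at 8.01, Esyt2 (a tether between membranes) at 8.01, Zfp638 (a zinc finger protein) at 7.97 and Slc35d1 (a nucleotide sugar transporter) at 7.97. The 3 others lay in Hexim2 (an inhibitor of the elongation kinase P-TEFb) at 8.15, Tnrc18 at 8.15 and Spi1 at 7.94. Hexim2 and Spi1 had no start in the table. Of the 10 host genes, 7 had no CM peak at either gene end, namely Tlk2, Gabpb1, Hexim2, Ecpas, Ankrd13c, Esyt2 and Slc35d1. In Tlk2 the centre of the interior peak lay 13.96 kb inside the gene, in Gabpb1 9.43 kb, in Ecpas 5.64 kb and in Ankrd13c 2.17 kb from the outermost annotated start.

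Internal starts with more CpG dinucleotides lay in CM peaks in a higher share of cases, as did starts at gene ends. The table held 3881 internal starts of protein-coding genes, of which 1301 (33.5%, 32.0 to 35.0) lay in a CM peak and 927 in an interior peak. Among 17382 starts at gene ends 45.6% lay in a CM peak, and among 2790 internal starts of genes that are not protein-coding 7.85% did. Internal protein-coding starts with 0 to 4 CpG in the 300 bases around them lay in a CM peak in 7.18% of cases (5.79 to 8.79), those with 5 to 9 in 17.2%, those with 10 to 19 in 46.7%, those with 20 to 29 in 68.6% and those with 30 or more in 71.7% (67.4 to 75.8). At gene ends the same classes gave 4.46%, 21.5%, 57.9%, 74.4% and 80.4%. With romidepsin the internal starts lay in a peak in 29.2%, 42.0%, 69.6%, 84.3% and 83.5% of cases.

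**Figure D2:**
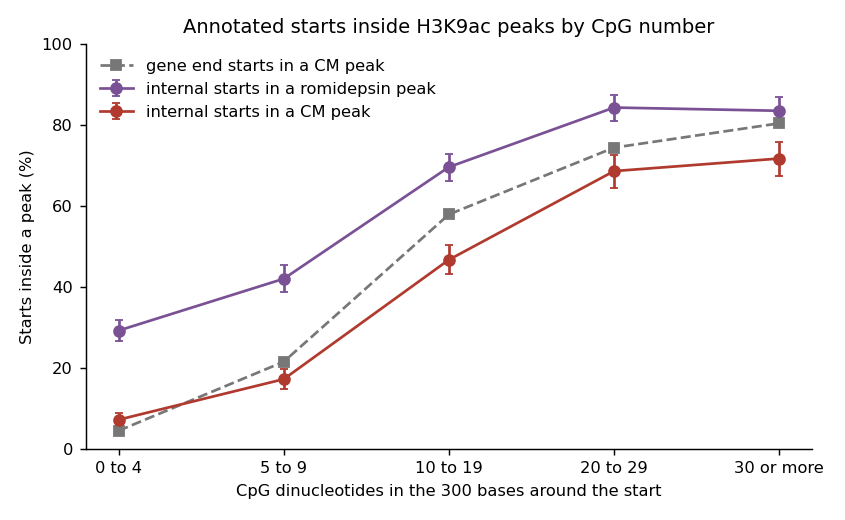
Percent of annotated starts inside an H3K9ac peak against the number of CpG dinucleotides in the 300 bases around the start, for internal starts in CM peaks, the same starts in romidepsin peaks, and gene end starts in CM peaks. Error bars are 95% Clopper-Pearson intervals for internal starts. All 3 lines climb from the class of 0 to 4 CpG to that of 20 to 29, from 7.18% to 68.6% for internal starts in CM.

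Internal starts in interior peaks lay in sequence richer in GC and CpG than internal starts in no CM peak. The median CpG number was 20 (interquartile range 12 to 29) around the 927 internal starts in an interior peak, 5 around the 2580 internal starts in no CM peak, 23 around gene end starts in a CM peak and 7 over all 32851 listed starts. Median GC content was 61.7% around the internal starts in an interior peak and 51.7% around those in no CM peak. A GC box on either strand was found around 61.2% of the internal starts in an interior peak, 26.5% of those in no CM peak, 69.6% of gene end starts in a CM peak and 35.7% of all starts. The ETS core was found around 27.7%, 18.8%, 30.7% and 23.8% of these 4 sets. The CCAAT box (CCAAT or ATTGG) was found around 32.9%, 36.4%, 38.1% and 37.4%, and a TATA box (TATAAA or TTTATA) around 5.83%, 13.6%, 5.89% and 13.6%. Both strands were searched, matches of different motifs can share bases, and a match describes the letters only.

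Some genes had an interior peak over an internal start and no CM peak in the window of the outermost end. Of 2929 genes with an internal start, 757 had an interior peak over one. In 276 of these the window around the outermost start also held a CM peak, which was 25% of the 1104 genes of that kind, and in 481 it did not, which was 26.4% of 1825, so the 2 shares were alike. For 359 of the 481 the table listed no start within 1 kb of the outermost end, and 122 had one. Only in those 122 is a listed outer start shown to lie outside CM peaks. The genes named next were not sorted by whether they have such a start. Nfkb2, the NF-kappaB subunit of the non-canonical arm, had no gene end CM peak and 1 interior peak of 2580 bp and fold 7.07, which held 3 listed starts between its borders at chr19:46303811-46306390 and lay 4.11 kb from the outermost start. The same arrangement was seen at Bcl2l1, where an interior peak 2363 bp long with a fold of 5.65 and one 595 bp long with a fold of 3.90 each held a start, at Ldha (lactate dehydrogenase A, 2216 bp, fold 7.29), at Hdac4 (a class IIa deacetylase, 2962 bp, fold 6.67, 15.8 kb from the outermost start) and at Brd3 (a BET acetyl reader, fold 6.16 over a start and 3.76 beside it). Csk, the kinase that restrains Src family kinases, had 5 interior peaks and no gene end peak, with its highest fold, 6.42, over a start. Ywhaz (a 14-3-3 adaptor, 3908 bp, fold 7.20) and Cd63 (a lysosomal tetraspanin, 1550 bp, fold 6.20) also had an interior peak and no gene end peak. Neither is a case of a peak over a listed start, since the Cd63 peak held none and Ywhaz had no start in the table. Nfkb2, Bcl2l1, Hdac4, Brd3, Ywhaz, Cd63, Csk and the other listed genes named beyond the rule were chosen after their values were seen.

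Host genes numbered 2700, which was 12.3% of 21887 protein-coding genes (11.9 to 12.8). They were long, with a median of 44.0 kb (interquartile range 20.7 to 97.1) beside 17.2 kb over all protein-coding genes. The share of genes that were hosts was 2.70% under 10 kb, 12.8% from 10 to 30 kb, 19.9% from 30 to 100 kb, 28.5% from 100 to 300 kb and 21.5% at 300 kb or longer. Hosts had a CM peak at a gene end in 1750 cases (64.8%), against 48.8% of all protein-coding genes and 56.2% of those of 10 kb or longer. Among genes of 10 kb or longer, 20.5% of those with a gene end peak (19.6 to 21.4) and 14.4% of those without (13.5 to 15.3) were hosts. Of the hosts without a gene end peak and with listed starts, 63.5% (59.9 to 66.9) had an interior peak over a listed start, and of those with a gene end peak 22.4% (20.2 to 24.6) did. Where strand was known, 62.8% of hosts had a CM peak in the window of the outermost start and 6.69% in the window of the 3′ end.

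Most hosts held a single interior peak. There were 1858 such genes (68.8%), while 458 genes held 2, 190 held 3, 91 held 4, 37 held 5 and 66 held 6 or more. The 842 genes with 2 or more held 2479 interior peaks. Neighbouring interior peaks of 1 gene lay a median of 3306.5 bp apart (interquartile range 756.25 to 13817). The 66 genes with 6 or more held 467 interior peaks, had a median length of 99.9 kb (25.6 to 1302) and had a gene end CM peak in 55 cases. A small number of peaks were shared, 45 between 2 overlapping genes and 1 among 3, so that peaks and hosts formed 4360 pairs.

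The 10 genes named for the most interior peaks, with ties at 9 broken by the highest fold, included the nuclear regulators Zmiz1 and Foxp1, the receptor Notch1 and the cytoskeletal genes Plec, Pxn and Septin9. Zmiz1, a coactivator of the PIAS family, held 14 along 208.9 kb, with folds from 3.42 to 5.88 and a median of 3.75. Zfp710, a zinc finger gene, held 12 with a median fold of 3.68, and its first, 3.61 kb from the outermost start, reached 7.77. The gene 3110082I17Rik held 12 with folds from 3.50 to 6.56, 4 of them shared with Gpr146 and 1 with C130050O18Rik inside it. Notch1, the receptor of Delta and Jagged ligands, held 11 between 7.17 and 30.3 kb from its start, with folds from 3.29 to 4.40. Abr held 10 with folds up to 6.64, and 2 of these were over a listed start. Foxp1, a forkhead repressor, held 10 spread over 460.6 kb with a median distance of 48.0 kb between neighbours, beside 1.06 kb in Notch1. Plec (plectin, which links cytoskeletal filaments) held 10 with folds up to 4.80, Pxn (paxillin, an adaptor of focal adhesions) held 9 with folds up to 7.46, and Septin9 (a filament-forming GTPase) held 9 with folds up to 5.90 and had no gene end peak. Arhgap26 held 9 with folds up to 6.52 and likewise had no gene end peak, and 2 of its 9 were shared with Gm5820.

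Klf13, a Krüppel-like factor, also held 9, and Etv6, an ETS repressor, held 8. Myh9, the heavy chain of non-muscle myosin, likewise held 9, with a narrow range of folds from 3.42 to 3.98. Akap13 (a kinase anchor), Vmp1 (an autophagy protein) and Lcp1 (the actin bundler L-plastin) held 8 each. Runx1 held 7, of which 6 had folds between 3.46 and 4.39. The seventh, 2569 bp long at chr16:92696367-92698935, reached 7.02 and covered an internal start, with its centre 96185 bp from the nearer end of the gene. In Runx1 and in Zfp710 1 tall peak thus stood among low ones, and in Notch1 and Myh9 all peaks were low.

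**Figure D3:**
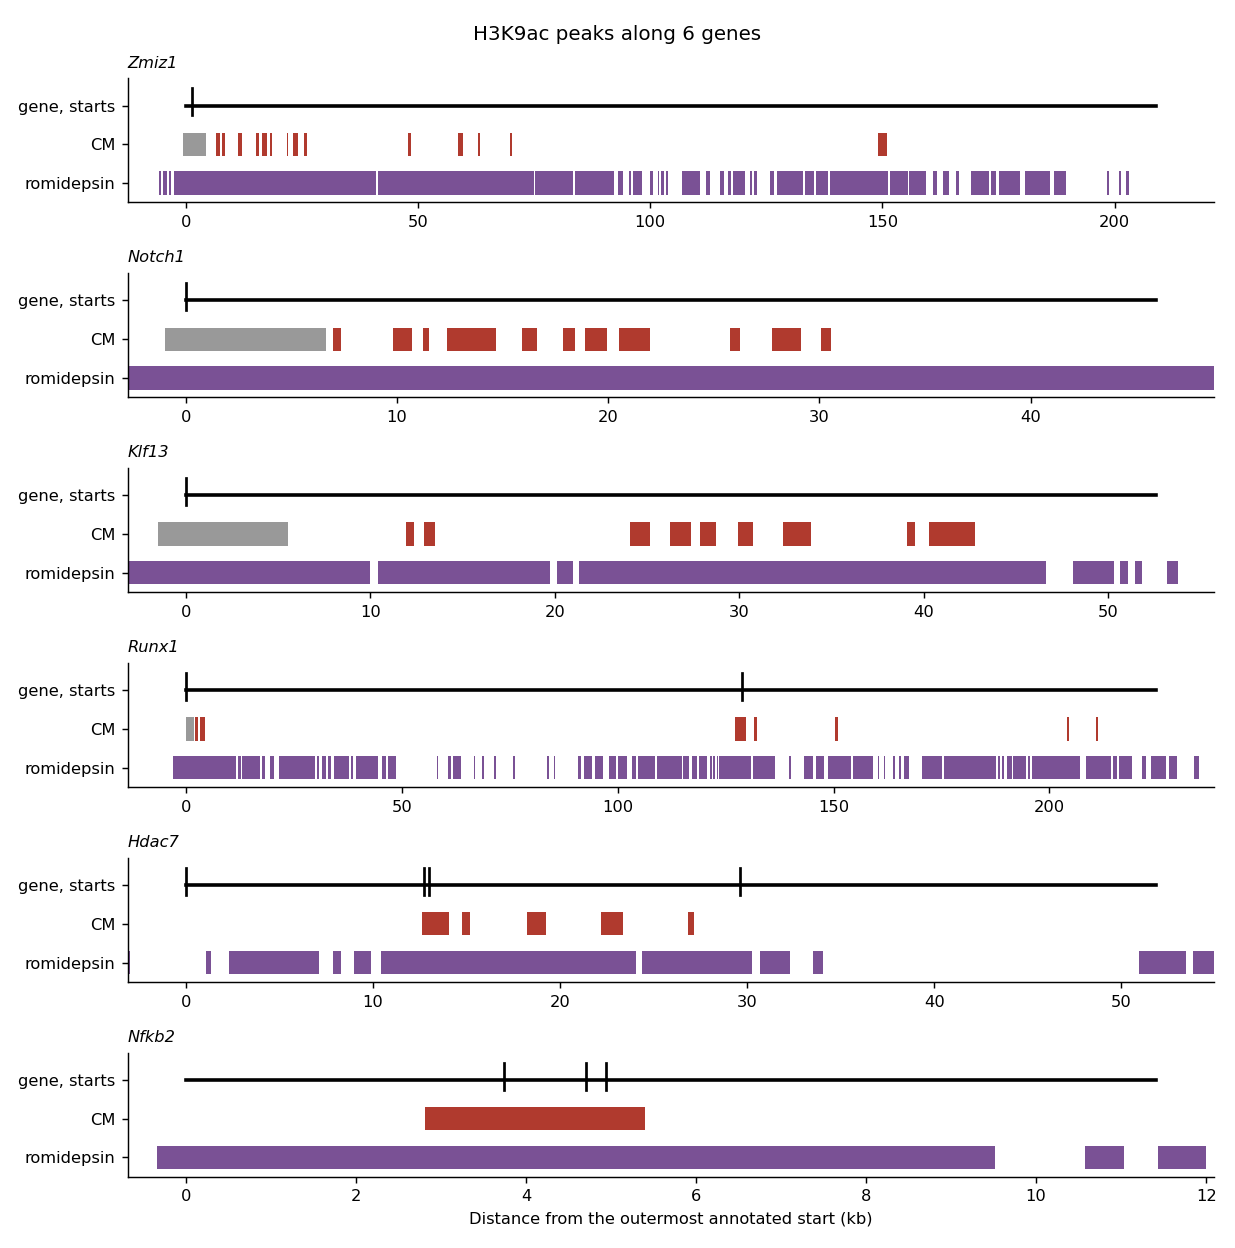
Peaks along 6 genes by distance in kb from the outermost annotated start. Black lines are gene spans with listed starts as ticks, red boxes interior CM peaks, grey boxes other CM peaks and purple boxes romidepsin peaks. Notch1 shows 11 interior peaks under 1 romidepsin peak of 56.9 kb, and Hdac7 and Nfkb2 show peaks over internal starts with no CM peak at the outermost end.

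Interior peaks were concentrated in the first part of the host. Over 988 Mb of gene interior there were 4.36 per Mb. By distance from the outermost start the density was 11.8 per Mb from 1 to 2 kb, 19.8 from 2 to 5 kb, 10.9 from 5 to 10 kb, 6.33 from 10 to 20 kb, 3.96 from 20 to 50 kb, 3.04 from 50 to 100 kb and 1.20 beyond. Measured from the 3′ end it was 3.11, 4.79, 6.40, 6.98, 6.82, 5.22 and 1.90 in the same distance classes. In the classes nearest an end, above all 1 to 2 kb, the rule left out every peak whose edge touched the 1 kb window. Their densities are therefore undercounts, and the lower value at 1 to 2 kb than at 2 to 5 kb cannot be read as a drop in acetylation. Of 3561 pairs of peak and host with known strand, 69.7% (68.2 to 71.2) lay nearer the start than the 3′ end. Among pairs at no listed start the share was 67.0% (65.2 to 68.7). When genes were cut into 5 equal stretches, the first held 33.2% of pairs and 18.9% of the interior sequence, and the last held 7.47% of pairs and 18.9% of the sequence. Without the peaks over a listed start these shares of pairs were 30.7% and 8.66%. The median interior peak lay 12.0 kb from the start (interquartile range 4.58 to 38.8) and at 32.6% of the length of its gene.

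**Figure D4:**
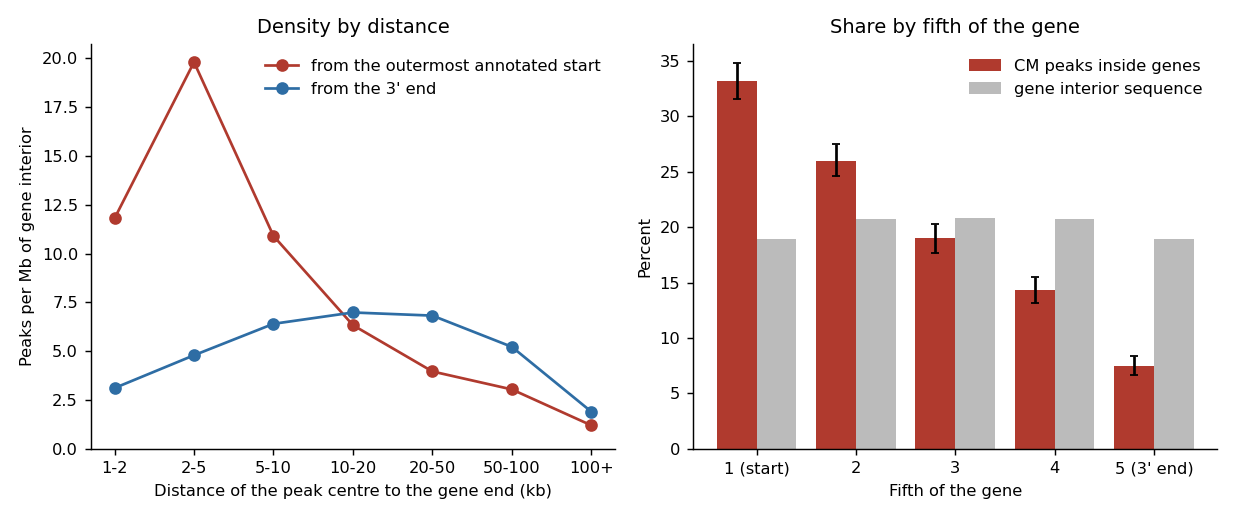
Left, interior peaks per Mb of gene interior by distance of the peak centre in kb from the outermost annotated start and from the 3′ end. Right, percent of interior peaks (red, with 95% Clopper-Pearson intervals) and of interior gene sequence (grey) in 5 equal stretches of the gene. Density is highest, at 19.8 per Mb, from 2 to 5 kb after the start, and the share of peaks falls from 33.2% in the first stretch to 7.47% in the last.

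The peaks farthest from any gene end lay in 2 very long genes. Pde4d, a cAMP phosphodiesterase gene, held 4 of the 5 farthest, at 558.0, 575.9, 606.3 and 786.8 kb from the outermost start, with folds of 3.82, 3.59, 4.34 and 3.84. From the nearer gene end these lay 558.0, 575.9, 606.3 and 515.0 kb. Ctnnd2, which encodes delta-catenin 2, held the other, with a fold of 4.30. It lay 474.4 kb from the outermost start and 382.4 kb from the nearer end. None of these 5 held a listed start of its host, but the Pde4d peak at 786.8 kb held a start of a gene that is not protein-coding. The 5 peaks were 319 to 650 bp long.

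Interior peaks away from starts often lay close to other peaks. The gap to the nearest CM peak had a median of 4097 bp for interior peaks, 2397.5 bp for those at no listed start and 14687 bp for those over one, beside 18744 bp for gene end peaks and 7759 bp outside genes. Another CM peak lay within 2 kb of 40.3% of interior peaks (38.9 to 41.8). For 17.1% a gene end peak was that near and for 28.0% another interior peak was. The share was 47.5% at no listed start and 18.9% over a start, beside 17.2% at gene ends and 26.5% outside genes.

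Peaks of the romidepsin library covered nearly every interior peak and were much wider. Of the 4313, 4306 (99.8%) overlapped a romidepsin peak, against 99.9% of all CM peaks, a share near that of the whole list. Wholly inside a romidepsin peak were 98.4%. The longest overlapping romidepsin peak, called the partner, had a median length of 7790.5 bp (interquartile range 4193 to 13829). A partner shared by several interior peaks counts once for each, and the distinct partners had a median of 6333 bp. The median partner length was 8625 bp at no listed start and 5691 bp over a start, beside 5326 bp at gene ends and 4601.5 bp outside genes. The median ratio of partner to CM peak length was 9.76 for interior peaks, 13.5 at no listed start and 3.73 over a start, beside 3.54 at gene ends and 6.55 outside genes. These ratios also reflect the CM peaks themselves, with a median of 582.5 bp at no listed start and 1479 bp over a start. The partner was longer than 10 kb for 44.3% of interior peaks at no listed start (42.4 to 46.2), 23.6% of those over a start (20.8 to 26.7), 19.2% of gene end peaks and 19.9% of peaks outside genes (18.3 to 21.6). With 1 library per condition these widths compare 2 libraries, and the part of their depth was not tested.

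Wide partners joined interior peaks to each other and to the gene ends. The partner held 2 or more CM peaks for 49.9% of interior peaks, 58.6% at no listed start and 25.1% over a start, beside 22.2% at gene ends. Interior peaks alone in their partner had a median length ratio of 4.83, and those sharing it had 19.2. A partner that holds several CM peaks must span them and the gaps between them, so this contrast follows from the split. The median partner lengths were 4396 and 13367 bp. The partner reached a gene end window of the host for 38.7% of interior peaks (37.3 to 40.2), and for 29.7% the partner, reaching such a window or not, held a gene end CM peak. Where strand was known it reached the start window for 34.0% of pairs, the 3′ window for 8.41% and both for 4.73%. The share reaching a window fell with distance, from 78.1% under 5 kb to 48.0% at 5 to 10 kb, 18.4% at 10 to 20 kb and 1.82% beyond. In all, 3379 romidepsin peaks were partners, and 572 of them held 2 or more interior peaks, at most 11. Of the 842 hosts with 2 or more interior peaks, 536 had fewer partners than interior peaks and 343 had a single partner.

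In several hosts 1 romidepsin peak ran over the whole row of interior peaks. The 11 of Notch1 lay under 1 partner, which was 56.9 kb long and reached past both gene ends. Pxn had 9 under 1 partner of 45.5 kb, and Prkcd (protein kinase C delta) and Ptpn1 (the phosphatase PTP1B) had 7 each under partners of 40.9 and 33.6 kb. Slc2a1, the glucose transporter GLUT1, had 7 under a partner of 29.3 kb. The 9 peaks of Zmiz1 nearest its start shared a partner of 43.4 kb, the next 4 shared one of 33.5 kb, and the last lay alone in one of 12.6 kb. In Foxp1, by contrast, the 10 peaks had 8 partners of at most 11.5 kb, and the 7 of Runx1 had 6. The longest partner of any interior peak spanned 61174 bp and held 4 interior peaks of Cyth1, an exchange factor for ARF GTPases. The next, of 58808 bp, held a 360 bp peak in Ensa, which inhibits the phosphatase PP2A in mitosis.

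The 7 interior peaks with no romidepsin peak over them had folds from 2.98 to 4.27. They lay in Ptpro (a receptor phosphatase, fold 4.27), in Hjurp (a chaperone of centromeric histone, 2 peaks at 4.10 and 3.26), in Dnah14 (an axonemal dynein, 3.97), in Peak1 (a pseudokinase, 3.63), in Cd244a (a receptor of the SLAM family, 3.14) and in Sfi1 (a centrosomal protein, 2.98). They measured 292 to 726 bp, beside medians of 3.99 and 694 bp for the fold and length of all interior peaks.

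Among 19 gene lists with 380 genes, 137 genes were hosts, and the lists of receptor signalling and myeloid transcription factor genes were among those with the highest counts. The lists were drawn up with earlier results of these data known, so the counts are a description. Over all protein-coding genes 12.3% were hosts, which is the share to set beside the counts of whole lists. The counts are also given with the share among genes of 10 kb or longer that had a gene end CM peak, which over all protein-coding genes was 20.5%. Immune receptor signalling kinases and phosphatases gave 21 hosts of 25 genes and 20 of 23 (87.0%, 66.4 to 97.2) in that length and peak class. The list was led by Ptpn1 and Prkcd with 7 interior peaks each, and Syk, the kinase of ITAM receptors, had 6. Myeloid lineage transcription factors gave 19 of 30, and 14 of 16 in the class (87.5%, 61.7 to 98.4).

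The transcription factors differed in how their interior peaks were built. Etv6 had 8 with folds of 3.66 to 5.68, and Fli1 had 6 that stayed at or below 3.97. Spi1 had 4, with folds of 3.47, 3.48 and 3.84 next to 1 of 3659 bp that reached 7.94 at chr2:91096124-91099782. Elf1 had 5 up to 6.12. Irf8, needed for monocyte and dendritic cell fate, had 3 between 3.52 and 3.68, all under 1 partner of 11793 bp. Runx2 had 3 up to 6.61, Runx3 had 1 at 6.54 and Mef2a had 1 at 6.54, and these 3 genes had no gene end CM peak.

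JAK-STAT and cytokine receptor genes gave 13 hosts of 25 and 13 of 24 in the class (54.2%), with folds up to 6.27 in Stat5b and 3 interior peaks each in Il17ra and Ifngr2. Lipid and lysosome genes of TREM2 myeloid cells gave 14 of 24 and 11 of 16 in the class (68.8%), led by Vmp1 with 8 and Tfeb, the regulator of lysosome genes, with 6. Apoe, the lipid carrier, had 1 over its own start at fold 4.27. Monocyte and macrophage markers gave 8 of 20 and 7 of 11 (63.6%), with 3 in the complement receptor C5ar1. Acetyltransferases, acetyl readers and corepressors gave 9 of 20 and 8 of 17 (47.1%), and Ep300 had 1 at 4.04. Histone deacetylases gave 3 of 15 and 1 of 6 in the class (16.7%, 0.421 to 64.1), near the share over all genes. The 3 hosts were the class IIa genes Hdac7 with 5, Hdac4 with 1 and Hdac5 with 1, while Hdac9, of the same class, held none. Hdac7 had its highest fold, 6.56, over an internal start 13.3 kb from the outermost one, and the 3 lower peaks nearest to it (3.52, 4.93 and 3.62) lay under the same partner of 13604 bp.

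Dendritic cell markers gave 5 of 15 and 2 of 5 in the class, led by Tcf4 with 5 interior peaks. The NF-kappaB and Toll-like receptor pathway gave 7 of 24 and 5 of 19 in the class (26.3%, 9.15 to 51.2), led by Irak2 with 6, and Nfkbiz had 1 at 7.29. Senescence and cell cycle arrest genes gave 5 of 21 and 3 of 9 in the class (33.3%, 7.49 to 70.1), with 5 interior peaks in Cdk6, 4 in Ccnd3, and 1 in Cdkn1a, the inhibitor p21, which was 3794 bp long with a fold of 6.54. Secreted inflammatory factors gave 2 of 22 (Lif at 4.47 and Ccl4 at 3.52) and 1 of 5 in the class, in genes with a median length of 5.67 kb. Housekeeping genes gave 3 of 20 (Ldha, Ywhaz and Pgk1) and 1 of 6 in the class. Neutrophil markers gave 1 of 20 (Mmp8, 2 peaks) and 1 of 3 in the class, and lymphocyte markers gave 2 of 20 (Lck and Gata3) and 0 of 2. Erythroid and megakaryocyte markers gave 3 of 14 (led by Tal1 at 5.37) and 2 of 4 in the class. Stromal and endothelial markers gave 3 of 15 (led by Vwf at 4.56), neuron, liver and muscle genes 1 of 18 (Ryr1) and mast cell and basophil markers 1 of 10 (Hdc), and these 3 lists had at most 1 gene in the class, which was no host. For every list of this paragraph with a gene in the class, the interval of the share in the class included the 20.5% over all genes. The counts over all lists rest mainly on low peaks, since only 34 listed genes, not 137, held an interior peak when peaks of fold 5 or more were used.

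**Figure D5:**
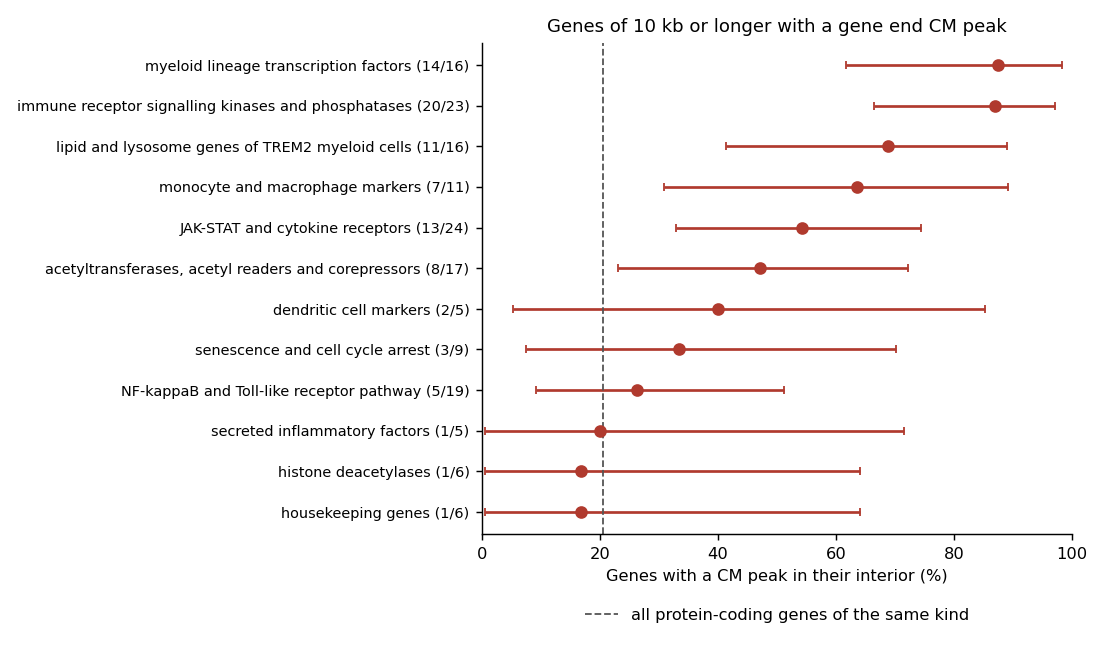
Percent of genes of 10 kb or longer with a gene end CM peak that held an interior peak, for 12 lists with 5 or more such genes, with 95% Clopper-Pearson intervals and hosts over genes in brackets. The dashed line marks 20.5%, the share over all protein-coding genes of that kind. Myeloid transcription factors (87.5%) and immune receptor kinases and phosphatases (87.0%) lie at the top and histone deacetylases and housekeeping genes (16.7% each) at the bottom.

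A small number of microRNA genes lay under an interior peak. Of 1005 miRNA hairpins in RefSeq, 555 lay inside protein-coding genes away from the ends, and 8 of these (1.44%, 0.624 to 2.82) lay in an interior peak, where interior peaks covered 4.22 Mb of 988 Mb of gene interior. Mir33, which sits in Srebf2, the gene of a sterol-responsive transcription factor, lay in a peak of 489 bp with a fold of 3.68. Mir339, in 3110082I17Rik, lay in one of 2777 bp with a fold of 6.56, and Mir330, in Eml2 (a microtubule protein), lay in one of 1001 bp with a fold of 5.38 that also held a start. The peaks over Mir7687 in Gse1 (fold 6.99), Mir8104 in Ppm1h (7.60) and Mir5620 in Clcn4 (5.10) held a start too, which made 4 of 8. The others were Mir7228 in Syna (3.78) and Mir7235 in Tbkbp1 (3.43). The mature sequences of Mir33, Mir339 and Mir330 are given from RefSeq with the seed, bases 2 to 8, in capitals, and no seed was shared among them.
mmu-miR-33-5p: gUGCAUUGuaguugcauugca
mmu-miR-33-3p: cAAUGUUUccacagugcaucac
mmu-miR-339-5p: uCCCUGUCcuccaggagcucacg
mmu-miR-339-3p: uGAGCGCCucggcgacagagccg
mmu-miR-330-5p: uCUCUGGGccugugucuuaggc
mmu-miR-330-3p: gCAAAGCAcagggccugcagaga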

How the data were processed

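Chromatin of mouse MDSC was pulled down by its acetylated H3K9 and sequenced as single reads, per the labels' protocols. Bowtie2 2.4.4, MACS2 2.2.7.1 and deepTools 3.5.1 were used with mm10, per the submitters' processing notes. Settings and the use of the inputs as control are not given in the sources used here. The authors deposited 1 list of broad peaks per immunoprecipitated library, each with a position, a score (not used), a fold ratio over background and p- and q-values as −log10, all averaged over the peak. Each list was called on 1 library, and the folds of the 2 lists rest on different backgrounds, so they were compared only within a list. Read totals are not in the lists, so a deeper library may hold more and wider peaks.

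Interior peaks were selected by the rule given in the report from 21887 protein-coding genes of the RefSeq table of GRCm38.p6, the assembly of mm10. Strand and internal starts came from a RefSeq promoter table with 250 bases before and 50 after each start, which matched 17492 of these genes, and shares at listed starts use only peaks whose hosts all matched. Peaks overlapped from 1 bp. Exons, introns and the input libraries were not analysed here. The sequences of the interior peaks themselves were not read, only those around listed starts, and 3519 of the 4313 interior peaks had hosts with listed starts throughout. Shares have exact Clopper-Pearson intervals at 95%, computed in Python 3.11.15 with pandas 2.3.3 and SciPy 1.17.1. No test between conditions was run with 1 library each. The member regions, gene lists and naming rule were chosen with earlier results of these data known. The rule named the 10 genes with the most interior peaks, the 10 peaks of highest fold, the 5 longest, the 5 farthest from an end, the 5 strongest in hosts without a gene end peak, the leading host of each list, the peaks at the limits, those without a partner and the 5 with the longest partner. The result of 1 gene list and of 1 gene is not reported here. Counting and interval code was tested on simulated peaks. Alternatives covered the length limit, the window, stricter thresholds, merging, the gene set and the overlap.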

Additional observations from a re-analysis of the deposited data

How the results depend on the processing

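The 11 other settings left 33 of the main values within the limits used (1.5 times for counts, the counting interval for shares and medians) and moved 23 beyond them, and in the settings that select the peaks or genes 66.5% to 78.4% of pairs lay nearer the start. With peaks of −log10 q 5 or more, 610 interior peaks in 599 hosts remained to be counted, 78.4% lay nearer the start, 33.4% of partners reached a window of the host, the median fold was 6.16 and 27 listed genes were hosts. With peaks of fold 5 or more these values were 908, 867, 77.2%, 33.5%, 5.83 and 34, since the stricter limits drop the low peaks that make up most of the set. Merging peaks closer than 1 kb gave 66.5% nearer the start, 28.3% of partners reaching a window and a median fold of 4.11. Windows of 2.5 kb gave 66.9% and 33.6%, windows of 500 bp gave 41.1% of partners reaching a window and a median fold of 4.03, and a length limit of 3000 bp gave a median fold of 3.97. All genes of the RefSeq table gave 68.1% nearer the start and a median fold of 3.96. With as many of the strongest romidepsin peaks as there are CM peaks, 87.3% of interior peaks had a partner and 42.7% of those partners reached a window. Only the stricter thresholds moved the numbers of interior peaks, hosts and listed hosts by over 1.5 times. No paired analysis was possible because each condition has 1 immunoprecipitated library, and no library could be left out. Short and low peaks near the calling threshold depend most on depth, which is unknown.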
